A study of Amaranthus palmeri with 48 samples.

Results

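The auxin herbicide 2,4-D was compared with no treatment in Palmer amaranth leaves, with a resistant and a susceptible line of this broadleaf weed (Amaranthus palmeri) in 1 comparison. The comparison used 12 of the 48 libraries of the series. All 12 carry batch 1 in their labels, which has untreated libraries of its own. The 6 treated libraries came from plants 5, 7 and 8 of the resistant line (KCTR in the titles) and plants 5, 6 and 7 of the susceptible line (KSS), sprayed with 2,4-D. The 6 untreated libraries (NT in the titles) carried the same lines and plant numbers, without herbicide. Libraries were chosen by line, herbicide code and batch in their titles, not by any measured value. Leaves were taken 6 h after treatment, per the series' design text. Plants were raised from seed at 32 °C by day and 22 °C by night and were 10 to 12 cm tall when sprayed. The dose of 2,4-D is not given in the labels. Each line had 3 plant numbers, so a result common to both describes these plants only.

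Synthetic auxins such as 2,4-D mimic indole-3-acetic acid, the main natural auxin. Bound by receptors of the TIR1 and AFB family, auxin brings Aux/IAA repressor proteins to degradation, which frees auxin response factors to switch on genes of auxin conjugation, growth and feedback repression. In broadleaf plants an excess of auxin is known to lead on to ethylene and abscisic acid production, twisted growth and closure of stomata. Resistant weeds can lessen this by oxidising and conjugating the herbicide. The count table gives gene models by identifier and does not pair them with gene names, so none of these genes could be picked out here, the leaf label was not checked against marker genes, and 2 genes that rose and 2 that fell are named by identifier.

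The 12 libraries held 19414318 to 72979429 counts, and 19207 of the 26353 gene models passed the filter on low counts. Library totals averaged 38973400 ± 6943640 in treated and 48794500 ± 21824700 in untreated libraries (SD, n = 6 each; exact two-sided permutation within line, p = 0.355, where 0.005 is the smallest p possible). The 10 most abundant genes took 5.45% ± 0.33 of the counts in treated and 6.16% ± 1.49 in untreated libraries (exact permutation p = 0.31). Among untreated libraries, that of resistant plant 5 had the highest total, and that of resistant plant 7 had the lowest total, the lowest TMM scaling factor (0.866) and the highest share in the top 10 genes (8.77%).

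Treatment was the largest axis among the 12 libraries. Principal components were taken of log2 CPM, the counts scaled to a common library size, with the 2000 genes that varied most. The first held 21.8% of the variance. Treated libraries lay between 35.6 and 49.8 on it and untreated libraries between -60.0 and -27.3, with no overlap. The second component held 19.0% and set the lines apart, with resistant libraries between 21.8 and 58.7 and susceptible libraries between -48.6 and -23.1. On the third component, which held 14.7%, the susceptible plants lay apart from each other in the same order with and without 2,4-D. Plant 5 was at 56.0 treated and 77.1 untreated, plant 6 at -16.5 treated and -23.7 untreated, and plant 7 at -48.9 treated and -48.4 untreated.

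**Figure D1:**
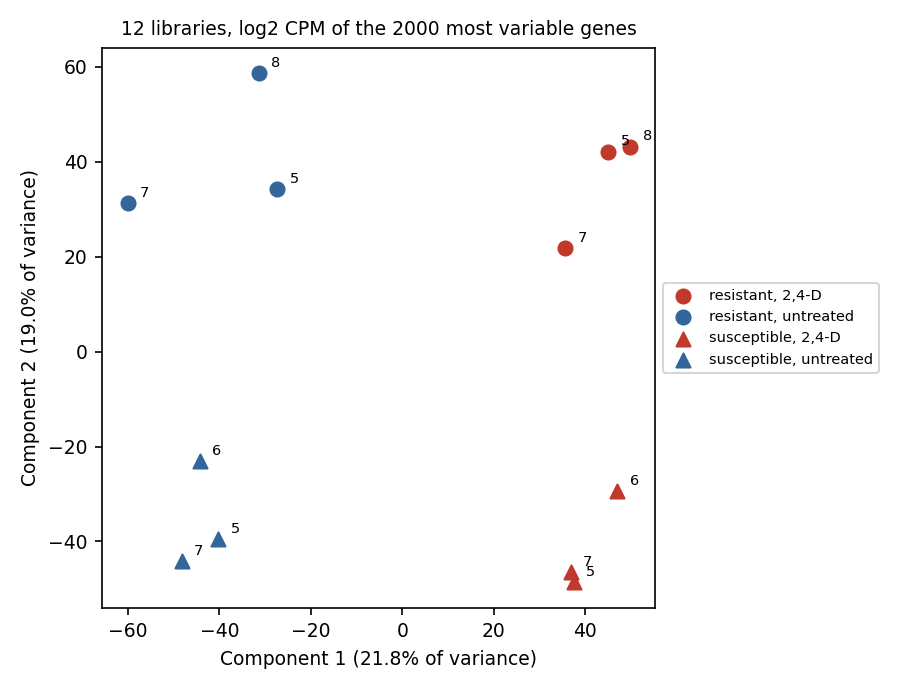
Position of the 12 libraries on the first and second principal components of log2 CPM, with the plant number beside each point; circles are resistant and triangles susceptible plants, red is 2,4-D and blue untreated. Treated libraries lie to the right (35.6 to 49.8) and untreated ones to the left (-60.0 to -27.3), while the lines separate along the vertical axis.

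At 6 h, 2,4-D changed many of the expressed genes, in near equal numbers up and down. With the line as a term in edgeR's quasi-likelihood fit, 4517 genes had a Benjamini-Hochberg adjusted p under 0.05 (23.5% of those tested). Of these, 2252 rose (11.7%) and 2265 fell (11.8%). With the plant as a block, which compares each treated plant number with its own untreated library, the same test called 6895 genes (35.9%), of which 3407 rose (17.7%) and 3488 fell (18.2%). In leaf RNA as a whole, a fall can mean less RNA per cell or fewer cells of a type, and these cannot be told apart. The median log2 change of all genes tested was -0.03.

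The gene with the largest rise by the naming rule was AmaPaChr10Ag166430. It stood at 118, 364 and 247 CPM in treated resistant plants 5, 7 and 8, against 1.92, 1.55 and 0.554 CPM in the untreated libraries of those numbers. In susceptible plants 5, 6 and 7 it stood at 138, 419 and 312 CPM after 2,4-D, against 1.01, 1.02 and 1.15 CPM without it. Every treated library was above every untreated one, which the naming rule asked of each gene that rose. The mean was 266 ± 121 CPM in treated and 1.20 ± 0.47 CPM in untreated libraries (SD, n = 6 each), a log2 change of 7.78 ± 0.46 SE (edgeR adjusted p = 1.25e-06). It was the last of 3 consecutive tested identifiers on chromosome 10 that rose together, by 4.96 to 7.78 on the log2 scale.

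AmaPaChr04Ag076890 was close to silent without treatment. Its levels were 25.9, 46.7 and 60.0 CPM in treated resistant plants 5, 7 and 8, against 0.253, 0.119 and 0.0791 CPM untreated, where the last 2 values rest on 2 counts each. Treated susceptible plants 5, 6 and 7 had 73.2, 35.4 and 17.0 CPM, against 0.202, 0.247 and 0.249 CPM untreated. The groups did not overlap, as the naming rule required, and the treated susceptible plants spread more widely than the treated resistant ones. The log2 change was 7.67 ± 0.45 SE (edgeR adjusted p = 1.25e-06), with means of 43.1 ± 21.2 CPM treated and 0.191 ± 0.075 CPM untreated (SD, n = 6 each).

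AmaPaChr15Ag229200 had the largest fall by the rule. Treated resistant plants 5, 7 and 8 had 1.87, 5.77 and 0.660 CPM, against 20.4, 17.4 and 38.3 CPM untreated. Treated susceptible plants 5, 6 and 7 had 0.267, 0.598 and 0.433 CPM, against 29.5, 8.38 and 22.1 CPM untreated. The nearest values of the groups were those of treated resistant plant 7 and untreated susceptible plant 6. The log2 change was -4.25 ± 0.66 SE (edgeR adjusted p = 0.00119). It was -4.92 without treated resistant plant 7. By line it was -3.20 (resistant) and -5.51 (susceptible), a difference that was not past the threshold (adjusted p = 1.00, edgeR interaction).

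AmaPaChr01Ag026280 fell to a narrow range. It had 1.11, 0.382 and 0.536 CPM in treated resistant plants 5, 7 and 8, against 13.3, 11.8 and 11.9 CPM untreated. Treated susceptible plants 5, 6 and 7 had 0.868, 0.544 and 0.703 CPM, against 6.76, 7.08 and 13.8 CPM untreated. All treated libraries were at or under 1.11 CPM and all untreated ones at or above 6.76 CPM. That the groups lay apart follows from the naming rule. The log2 change was -3.95 ± 0.32 SE (edgeR adjusted p = 1.34e-05), at -4.18 in resistant and -3.70 in susceptible plants.

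**Figure D2:**
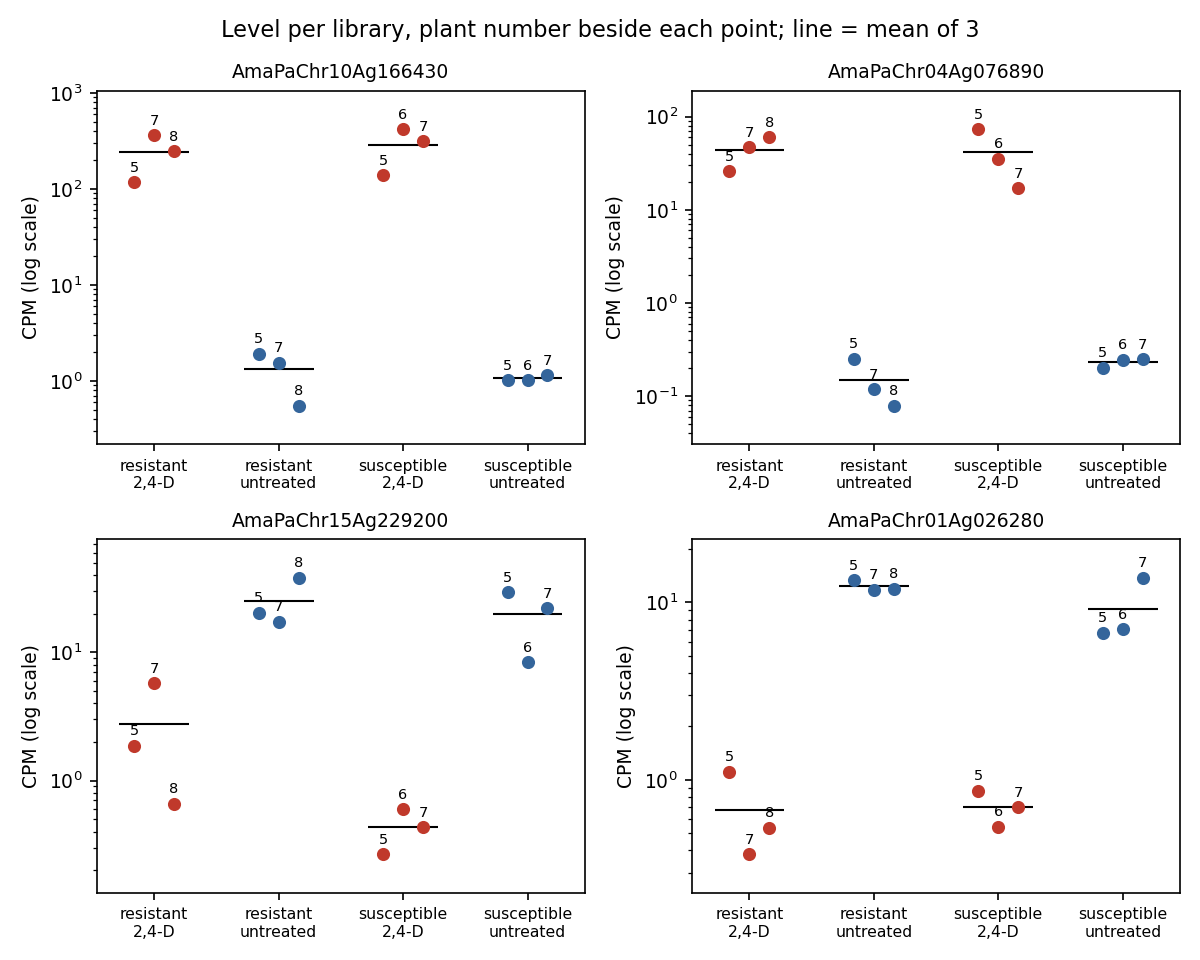
Level of the 4 named genes in each library, in CPM on a log scale, by line and treatment; the number beside a point is the plant and the black line is the mean of 3 libraries. In the upper pair every treated library is above every untreated one (17.0 to 73.2 against 0.0791 to 0.253 CPM for AmaPaChr04Ag076890), and in the lower pair every treated library is below (0.382 to 1.11 against 6.76 to 13.8 CPM for AmaPaChr01Ag026280). The naming rule required this separation.

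Rises reached further than falls, although both were mostly small. The median called gene rose by 0.78 or fell by 0.77 on the log2 scale, and 62.1% of the genes that rose and 68.1% of those that fell changed less than 2-fold. At the far end, 382 genes rose (1.99% of those tested) and 109 fell (0.568%) 4-fold or more, and 117 rose (0.609%) and 14 fell (0.0729%) 16-fold or more. The 6 treated libraries lay wholly above the 6 untreated ones for 1190 of the genes that rose, and wholly below them for 584 of those that fell. Over all tested genes, 6.33% were wholly above and 3.11% wholly below.

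Few genes went from silence to a high level. Of the genes that rose, 2 were under 1 CPM in all 6 untreated libraries and at 5 CPM or more in all 6 treated ones, of which AmaPaChr04Ag076890 is one. No gene did the reverse, that is, 0 genes that fell were under 1 CPM in every treated and at 5 CPM or more in every untreated library. The tested genes with 0 counts in all untreated libraries numbered 5. They passed the filter on low counts through their treated libraries alone, and the highest treated mean among the 4 that were called was 0.712 CPM.

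Called genes were spread unevenly over levels. Genes were sorted by their mean over all 12 libraries, in CPM, which also grows with transcript length. At 100 CPM or more, 543 of 2059 genes fell (26.4%) and 311 rose (15.1%). Between 10 and 100 CPM, 12.5% of 10053 genes fell and 15.1% rose. Between 1 and 10 CPM, 8.43% of 5006 genes fell and 6.85% rose, and under 1 CPM 2.20% of 2089 fell and 3.78% rose. The median log2 change of called genes was 3.15 for rises and -2.37 for falls under 1 CPM, and 0.80 for rises and -0.71 for falls at 100 CPM or more. At low counts only large changes can pass the test, so neither these shares nor these medians measure how response varies with level.

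The called genes made up a large part of the leaf RNA. Genes called higher took 20.2, 19.5 and 21.8% of the counts in treated resistant plants 5, 7 and 8, against 10.5, 7.31 and 9.21% untreated. They took 21.0, 22.7 and 21.4% in treated susceptible plants 5, 6 and 7, against 9.17, 8.69 and 8.22% untreated. As these genes were called on the same libraries, the shares are a description with no test. The mean was 21.1% ± 1.1 in treated and 8.85% ± 1.06 in untreated libraries, with a similar spread in both (SD, n = 6 each).

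Genes called lower took 19.3% ± 0.8 of the counts in treated and 30.5% ± 2.5 in untreated libraries. Their untreated share was lowest in resistant plant 5 (26.8%) and highest in susceptible plant 7 (33.3%) and resistant plant 7 (32.9%). The 117 genes that rose 16-fold or more held 4.03% ± 0.58 of the counts after 2,4-D and 0.123% ± 0.071 without it. The gain was concentrated, since the 10 genes that gained most CPM held 23.4% of the summed gain and 100 genes held 56.9%. Of the summed loss, the 10 genes that lost most held 15.8% and 100 genes 44.7%.

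**Figure D3:**
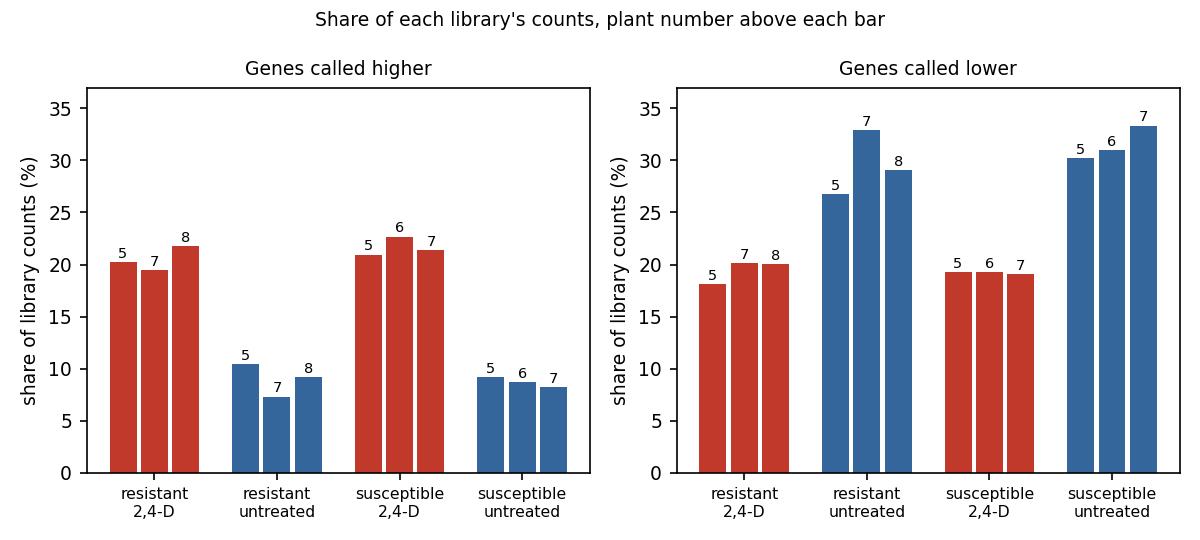
Percent of each library's counts that fell on the genes called higher (left) and lower (right) after 2,4-D, 1 bar per library with its plant number, red for 2,4-D and blue for untreated. Treated libraries hold 19.5 to 22.7% in genes called higher and untreated ones 7.31 to 10.5%; for genes called lower the ranges are 18.1 to 20.2% and 26.8 to 33.3%.

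The response was also read plant by plant. Of the genes that rose, 93.1% were higher in the treated than in the untreated library of all 6 plant numbers, and 87.2% of those that fell were lower in all 6. These genes were called on the same libraries, so agreement in sign largely follows from the call and is given as a description. Over all tested genes 17.7% were higher and 17.5% lower in all 6. The median within-plant log2 change of the genes that rose was 0.65, 0.88 and 0.71 in resistant plants 5, 7 and 8 and 0.71, 0.87 and 0.87 in susceptible plants 5, 6 and 7. For the genes that fell it was -0.47, -0.94 and -0.57 in resistant and -0.64, -0.79 and -0.86 in susceptible plants. Resistant plant 5 thus gave the smallest medians in both directions and resistant plant 7 the largest, the plants whose untreated libraries had the highest and the lowest total. Whether those totals have a part in this was not tested. With both libraries of plant 7 left out the test called 3032 genes (1709 rose, 1323 fell), and with both of plant 5 left out it called 4670 (2312 rose, 2358 fell).

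The lines were then compared, to see whether resistant plants respond otherwise to 2,4-D. The genes of the common test were chosen for a change shared by both lines in these libraries, so their equal sign in each line's own contrast (2252 that rose and 2265 that fell) follows from the choice. Their median log2 change was 0.74 in resistant and 0.82 in susceptible plants for genes that rose, and -0.74 in resistant and -0.79 in susceptible plants for those that fell. The resistant change was the larger in size for 41.1% of these 4517 genes. No gene passed the threshold for a difference between the lines (0 by edgeR's interaction contrast, with 222 at an unadjusted p under 0.05), while DESeq2 called 6, all with a lower log2 change in resistant than in susceptible plants. This does not show that the lines act alike. The SE of the difference had a median of 0.35 over the called genes on the log2 scale, and for 51.7% of them the 95% interval of the difference lay within 1 log2 unit of 0. For 5.87% the estimated difference was 1 log2 unit or more.

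**Figure D4:**
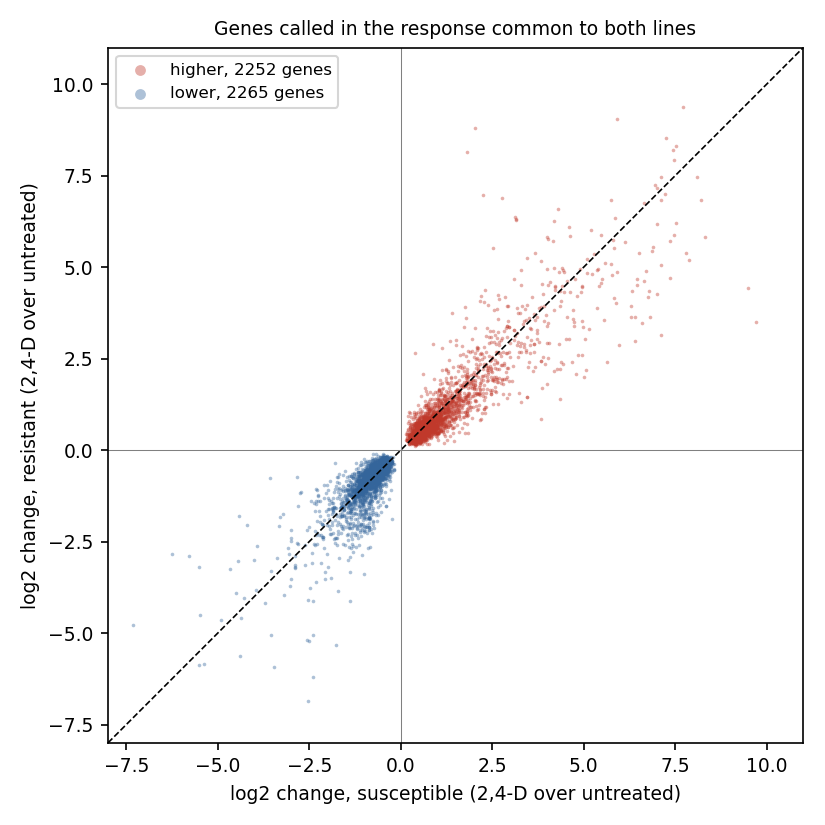
Log2 change of the 4517 genes called in the common response, in resistant plants (vertical) against susceptible plants (horizontal); red genes were called higher and blue genes lower, and the dashed line marks equal change. The points lie in the quadrants of equal sign, which follows from how the genes were chosen, and no gene passed the test of a difference between lines.

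Genes chosen in one line were read in the other, whose libraries had no part in the choice. A fit of the 6 resistant libraries alone called 334 genes higher (1.81% of those tested) and 67 lower (0.362%). In susceptible plants 100% of both sets had the same sign, where 48.9% of all genes were higher and 51.1% lower. The 334 genes stood at a median of 1.89, 2.14 and 1.92 log2 units above the untreated mean in treated susceptible plants 5, 6 and 7, and untreated susceptible libraries lay between -0.09 and 0.14. The 67 genes stood at -1.14, -1.28 and -1.03 in the same treated plants, against -0.23 to 0.14 in untreated ones.

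The reverse reading held more genes. A fit of the 6 susceptible libraries alone called 890 genes higher (4.82%) and 701 lower (3.8%), of which 99.6% in each direction had the same sign in resistant plants. The 890 genes stood at 1.11, 1.08 and 1.06 in treated resistant plants 5, 7 and 8, against -0.25 to 0.22 in untreated ones. The 701 genes stood at -0.96, -0.71 and -0.68 in treated resistant plants, against -0.50 in untreated plant 5, 0.03 in plant 8 and 0.48 in plant 7. Treated and untreated resistant libraries did not overlap in either set, but for the lower genes untreated plant 5 (-0.50) lay next to treated plant 8 (-0.68).

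Within each line fewer genes were called, and the calls leaned on single libraries. With group means over the same 12 libraries, 820 genes were called in resistant plants (4.27% of those tested) and 1224 in susceptible plants (6.37%). Rises numbered 575 in resistant (2.99%) and 836 in susceptible plants (4.35%), and falls 245 (1.28%) and 388 (2.02%). Both lines shared 467 rises, 81.2% of the resistant and 55.9% of the susceptible ones. They shared 132 falls, 53.9% of the resistant and 34.0% of the susceptible ones, and 0 genes were called in opposite directions. The resistant count was 2021, 362 and 539 without untreated plants 5, 7 and 8 of that line, and 381, 347 and 413 without its treated plants 5, 7 and 8. The susceptible count was 1037, 511 and 454 without untreated plants 5, 6 and 7 of that line. It was 633, 579 and 646 without treated plants 5, 6 and 7 of the line. The same count was 2213 without untreated resistant plant 5, which is in the same fit but not in the contrast. With the plant as a block 2161 genes were called in resistant and 3404 in susceptible plants. Rises were the more numerous in both lines, but this lean depended on the fit. Without untreated resistant plant 5, 979 genes rose and 1042 fell in resistant plants, and 1199 rose and 1014 fell in susceptible plants. With the plant as a block, 1241 rose and 920 fell in resistant plants, and 1728 rose and 1676 fell in susceptible plants. DESeq2 gave 1200 rises and 1135 falls in resistant plants, and 1612 rises and 1227 falls in susceptible plants. Of the 4517 common genes, 1319 that rose and 1774 that fell were called in neither line by itself.

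The identifiers carry a chromosome number and a serial number, which show where called genes sit among the others without coordinates. Genes that rose made up 9.50% of tested genes on chromosome 13 and 15.6% on chromosome 3, the lowest and highest of 17 chromosomes. For genes that fell the extremes were 9.80% on chromosome 2 and 14.7% on chromosome 11. Of all called genes that rose on these chromosomes, 26.4% (594 of 2248) stood directly before or after another. Of all tested genes 22.0% stood beside one. For all called genes that fell the share was 28.0% (629 of 2248), where 22.1% of all tested genes stood beside one. Of genes that rose 4-fold or more, 15.2% (58 of 382) stood beside another that did, where 3.93% of all tested genes did. Of genes that fell 4-fold or more, 9.26% (10 of 108) stood beside another, where 1.12% of all tested genes did.

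There were 7 runs of 3 or more consecutive tested identifiers that all rose 4-fold or more, and no such run of genes that fell. The longest, of 4 genes on chromosome 7, rose by 3.47 to 8.13 on the log2 scale. A run of 3 genes on chromosome 4 rose by 5.39 to 7.08, and a run of 3 on chromosome 9 by 5.02 to 5.78. How reads were divided between near-identical neighbours was not checked, so the values of single genes within a run are uncertain.

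The genes that moved after 2,4-D were read after the other herbicides, each against untreated libraries of its own batch with the same fit. These herbicides act elsewhere in the leaf cell: atrazine on photosynthetic electron transport, chlorsulfuron on branched-chain amino acid synthesis, lactofen on chlorophyll and haem synthesis and mesotrione on plastoquinone synthesis. Each had 6 treated and 6 untreated libraries, 3 of each line, at the same time after spraying. Atrazine and chlorsulfuron (batch 2) and lactofen (batch 3) share no control library with 2,4-D, although the plant numbers of batch 2 recur from batch 1. Of the 2252 genes that rose after 2,4-D, 1463 also rose after atrazine (65.0% of them, and 26.9% of the atrazine list, where 28.1% of all tested genes rose). After chlorsulfuron 1372 also rose (60.9%, and 25.8% of that list; 27.5% of all), and after lactofen 1422 (63.1%, and 23.3% of that list; 30.9% of all). In all 3 they numbered 935 (41.5%), where 12.7% of all genes tested for 2,4-D rose after all 3. Genes that rose after 2,4-D and fell after the other herbicide numbered 139 for atrazine (6.17%, where 25.7% of all tested genes fell), 176 for chlorsulfuron (7.82%; 26.8% of all) and 254 for lactofen (11.3%; 29.7% of all).

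Of the 2265 genes that fell after 2,4-D, 1589 also fell after atrazine (70.2%, and 32.0% of that list; 25.7% of all). After chlorsulfuron 1299 also fell (57.4%, and 25.0% of that list; 26.8% of all), and after lactofen 1194 (52.7%, and 20.4% of that list; 29.7% of all). After all 3 they numbered 904 (39.9%), where 12.5% of all genes tested for 2,4-D fell after all 3. Genes that fell after 2,4-D and rose after the other herbicide numbered 89 for atrazine (3.93%, where 28.1% of all tested genes rose), 466 for chlorsulfuron (20.6%; 27.5% of all) and 288 for lactofen (12.7%; 30.9% of all). In batch 2 the susceptible libraries numbered 7 matched batch 1 plant 6 in 100% of 8 genes that were on or off by plant, and plant 7 in 62.5%. The cuts for on and off were 5 and 0.2 CPM. Batch 2 susceptible libraries numbered 6 gave the same shares, so few of these 8 genes tell plants 6 and 7 apart. Without the susceptible libraries numbered 7, the genes shared with atrazine were 1342 that rose (59.6%, where 23.6% of all tested genes rose) and 1510 that fell (66.7%, where 22.9% fell). Those shared with chlorsulfuron were 1270 that rose (56.4%, where 23.0% of all rose) and 1221 that fell (53.9%, where 22.0% fell).

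**Figure D5:**
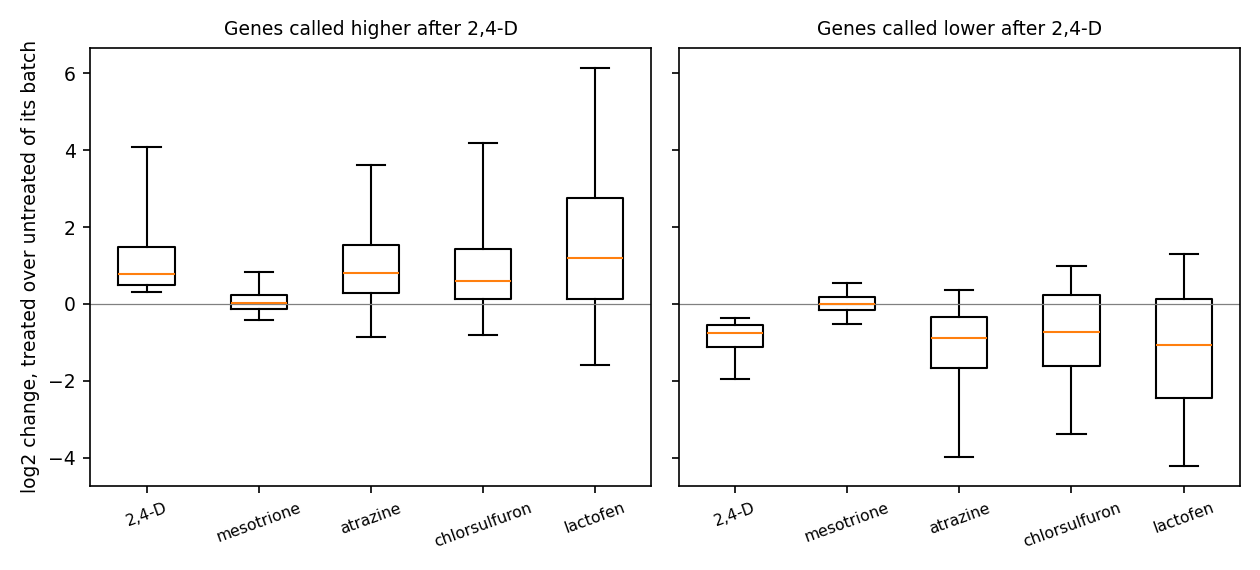
Log2 change, treated over untreated of the same batch, of the genes called higher (left) and lower (right) after 2,4-D, for each herbicide; boxes span the 25th to 75th percentiles of the genes with the median as a line, and whiskers reach the 5th and 95th percentiles. The median of the genes that rose is 0.78 after 2,4-D, 0.02 after mesotrione, 0.80 after atrazine, 0.59 after chlorsulfuron and 1.19 after lactofen.

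Mesotrione shares its untreated libraries with 2,4-D, so its values are only set beside the others. The same fit called 0 of 18739 tested genes after mesotrione (smallest edgeR adjusted p = 0.108), with 1533 at an unadjusted p under 0.05. The genes that rose after 2,4-D had a median log2 change of 0.78 after 2,4-D and 0.02 after mesotrione, and those that fell -0.77 and -0.00. AmaPaChr10Ag166430 averaged 266 ± 121 CPM after 2,4-D and 1.98 ± 0.84 CPM after mesotrione (SD, n = 6 each), beside 1.20 CPM untreated. AmaPaChr04Ag076890 averaged 43.1 CPM after 2,4-D and 0.412 ± 0.172 CPM after mesotrione, beside 0.191 CPM untreated.

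The 4 named genes moved the same way after atrazine, chlorsulfuron and lactofen as after 2,4-D, and both that rose did so least after atrazine. AmaPaChr10Ag166430 rose by 3.36 ± 1.28 SE on the log2 scale after atrazine (edgeR adjusted p = 0.0433), by 7.47 ± 1.06 SE after chlorsulfuron (adjusted p = 0.000117) and by 7.02 ± 1.15 SE after lactofen (adjusted p = 0.000247). Its level after atrazine was 0.768 ± 0.801 CPM against 0.086 ± 0.164 CPM untreated in batch 2. Its level after chlorsulfuron was 15.1 ± 9.7 CPM against 0.091 ± 0.174 CPM untreated in batch 2. After lactofen it was 331 ± 244 CPM against 2.16 ± 1.65 CPM untreated in batch 3 (SD, n = 6 each). AmaPaChr04Ag076890 rose by 4.48 ± 1.17 SE after atrazine, by 7.11 ± 0.91 SE after chlorsulfuron and by 6.24 ± 1.37 SE after lactofen on the log2 scale. After atrazine its level was low, at 0.80 ± 1.22 CPM against 0.029 ± 0.035 CPM untreated. After chlorsulfuron its level was 4.42 ± 3.14 CPM against 0.031 ± 0.037 CPM untreated. After lactofen it was 50.3 ± 66.6 CPM against 0.297 ± 0.279 CPM untreated (SD, n = 6 each). There the lowest treated library (0.751 CPM) was under the highest untreated one (0.769 CPM). AmaPaChr15Ag229200 fell after atrazine, chlorsulfuron and lactofen, with log2 changes of -2.71, -2.95 and -3.72 in that order. AmaPaChr01Ag026280 fell after atrazine, chlorsulfuron and lactofen, with log2 changes of -4.94, -4.66 and -5.34 in that order. Treated and untreated libraries also overlapped for AmaPaChr10Ag166430 after atrazine, AmaPaChr15Ag229200 after chlorsulfuron and AmaPaChr01Ag026280 after lactofen. In no gene of the 4 did the difference between the 2,4-D response and any of the 3 others pass the threshold, the nearest being AmaPaChr10Ag166430 against atrazine (difference 4.19 on the log2 scale, edgeR adjusted p = 0.0781).

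The differences between responses were tested over all genes in 1 fit of the 48 libraries. The 2,4-D response differed from that to atrazine in 23.6% of tested genes, from that to chlorsulfuron in 22.1% and from that to lactofen in 53.4% (edgeR adjusted p under 0.05). Each of these 3 herbicides was in another batch than 2,4-D, so a difference of herbicide and one of batch cannot be told apart. Of the 2252 genes that rose after 2,4-D, 407 (18.1%) had a higher and 385 (17.1%) a lower log2 change after it than after atrazine. Over all tested genes 10.8% were higher and 12.9% lower. Against chlorsulfuron 348 (15.5%) were higher and 206 (9.15%) lower, where 8.98% of all tested genes were higher and 13.1% lower. Against lactofen 545 (24.2%) were higher and 879 (39.0%) lower, where 26.7% of all tested genes were higher and 26.7% lower. Of the 2265 genes that fell, 240 had a lower and 436 a higher log2 change after 2,4-D than after atrazine. Against chlorsulfuron 683 were lower and 280 higher, and against lactofen 692 were lower and 813 higher. The shares over all tested genes given above apply here too. The genes that rose or fell were called for their response to 2,4-D in libraries that are part of the difference. This favours a larger change after 2,4-D, so the counts are a description. Of the genes that rose after 2,4-D, 117 (5.20%) had a higher log2 change after it than after each of the 3 others, where 2.99% of all tested genes did. Among the 382 that rose 4-fold or more these were 24 (6.28%). Of the genes that fell, 161 (7.11%) had a lower log2 change after 2,4-D than after each of the 3, where 4.36% of all tested genes did. Of the 382 genes that rose 4-fold or more, 194 (50.8%) rose after atrazine, chlorsulfuron and lactofen alike, where 12.7% of all genes did, and 26 (6.81%) were called after none of them, where 17% of all genes were. Their median log2 change was 3.16 after 2,4-D, 2.34 after atrazine, 3.02 after chlorsulfuron and 4.96 after lactofen.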

How the data were processed

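Stranded polyA libraries of leaf RNA were read as 150 bp pairs, per the labels' protocols. Trimmomatic, FastQC, STAR and DESeq2 stand in the submitters' processing notes; for the roles of these tools, the genome build, annotation and strand setting, the entry is: not given in the sources used here. Unscaled counts per gene model were deposited by the authors; 99.5% of those above 0 were even in the 12 libraries, as when both mates are counted. A line naming no gene held 0 counts. Overlapping, antisense or near-identical genes may share reads, so their values are uncertain.

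Genes were tested with edgeR 4.0.16 (R 4.3.3; quasi-likelihood, TMM factors, default filter on low counts) with terms for line and treatment and 9 residual degrees of freedom, and called at a Benjamini-Hochberg adjusted p under 0.05. SE is the log2 change over the square root of F. CPM uses TMM factors, and log2 CPM a prior count of 1. Alternatives included DESeq2 1.42.0 and a plant block (5 residual degrees of freedom). The script was tested on simulated data.

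Named genes were called, reached a mean of 5 CPM in the higher group and had no overlap of the 6 treated with the 6 untreated libraries; the 2 with the largest log2 change were taken of 1096 that rose and of 546 that fell. The rule for differences between lines named none, and lists by product name could not be applied. Members, lists and rules were chosen with earlier results of these data known.

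Same-numbered treated and untreated libraries deviated together from their group means. The correlation over genes was 0.39, 0.52 and 0.46 in resistant plants 5, 7 and 8 and 0.65, 0.61 and 0.70 in susceptible plants 5, 6 and 7. Different numbers gave -0.42 to -0.08. Deviations cancel out within a group, so negative values there follow from the positive ones of the same number. The numbers come from the titles. They were taken to pair the libraries in the plant block and in the plant by plant readings, while the main fits had no plant term. The labels do not say whether a number marks 1 plant or cuttings of it, so p-values measure the spread between these libraries.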

Additional observations from a re-analysis of the deposited data

How the results depend on the processing

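The 4 named genes kept their direction and call in all 108 values under the alternatives. They were named for large changes without overlap, so in fits of the same libraries this largely follows from the choice. Asking for a 2-fold change as well leaves their values as in the main fit. Except for AmaPaChr15Ag229200, their log2 changes moved most against the untreated libraries of batch 2, at 11.59 for AmaPaChr10Ag166430 (7.78 with those of batch 1), 10.38 for AmaPaChr04Ag076890 (7.67) and -1.98 for AmaPaChr01Ag026280 (-3.95). With mesotrione libraries in place of untreated ones they were 7.08 for AmaPaChr10Ag166430, 6.74 for AmaPaChr04Ag076890, -3.58 for AmaPaChr15Ag229200 and -3.15 for AmaPaChr01Ag026280. The common response counted 3224 genes without untreated susceptible plant 7 and 5528 without untreated resistant plant 5, the ends of the range over single libraries left out. It stood within 1.5 times 4517 under other size factors, total counts (2367 rose, 1811 fell), no filter, DESeq2, fragments, all 48 or the 18 batch 1 libraries, libraries thinned to the smallest total, group means and, chosen after seeing the data, mesotrione libraries in place of untreated ones (6198) and either resistant plant 5 or 7 left out. A 2-fold change as a further demand left 1577 genes, and 765 in susceptible plants, since it removes the smaller changes. With the plant as a block the counts were 6895, 2161 in resistant and 3404 in susceptible plants; the difference between lines stayed at 0 (649 at an unadjusted p under 0.05). Against the untreated libraries of batch 2, where batch and treatment cannot be told apart, 7252 genes were called. DESeq2 called 2335 in resistant and 2839 in susceptible plants, and 6 for the difference between lines; the cause was not tested. Leaving out single libraries gave 347 to 2021 genes in resistant plants, 454 to 2213 in susceptible plants and 0 for the difference. Without an annotation, gene families could not be followed. No value among 20 groups of 6 libraries lay far enough from the others to be singled out by Dixon's criterion at its 95% level.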
